A study of Mus musculus with 2 samples.

Results

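The neuregulins and their receptors were described in heart RNA of adult mice through 8 genes, chosen by symbol from the 55536 mouse genes of the deposited tables: the receptor genes Erbb4, Erbb2, Erbb3 and Egfr, and the ligand genes Hbegf, Nrg4, Nrg1 and Nrg2. All 8 were found and all are protein-coding, a class of 22028 genes. The data are total RNA sequencing of the hearts of 2 female B6CASTF1/J mice, F1 hybrids of C57BL/6J and CAST/EiJ, aged 8 to 10 months, with no treatment named in the labels. They form 1 group, in which replicate 1 is the animal numbered 1 and replicate 2 the animal numbered 3. Nothing in this design compares conditions, so each value below is a level, its spread over the animals (SD, n = 2) or a difference between the animals, and no p-value is given. Levels are in TPM, the share of a transcript among all transcripts of the library, which divides by transcript length and so lets genes be compared. Reads were assigned to mm10, the C57BL/6J reference, and no values of single alleles were analysed here.

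Neuregulins are ligands with a domain like that of epidermal growth factor, often called an EGF domain. They bind the receptor tyrosine kinases ERBB3 and ERBB4, which pair with each other or with ERBB2 and start the kinase cascades of AKT and ERK. In the heart, NRG1 released by endothelial cells acts on ERBB4 and ERBB2 of cardiomyocytes, a signal that mouse embryos need to build trabeculae. Mice that lack Erbb2 in their ventricular muscle cells develop dilated cardiomyopathy, and antibodies against ERBB2 given for breast cancer can weaken the human heart.

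Splicing gives both ERBB4 and NRG1 alternative forms, and the exons that tell them apart are shown here because the isoform results below turn on them. The extracellular juxtamembrane (JM) stretch of ERBB4 comes from 1 of 2 alternative exons, and the form made with JM-a can be cut by the protease ADAM17 while that made with JM-b cannot. A further exon, CYT-1, adds a docking site for phosphoinositide 3-kinase to the intracellular tail. In Nrg1 a pair of alternative exons ends the EGF domain, giving the alpha or the beta form, of which beta binds its receptors more tightly. The 5 exons are printed 5′ to 3′ on the minus strand of mm10, as the GENCODE M21 transcripts have them. Capitals mark the alternative exon and lower case the 12 transcript bases on either side of it.
Erbb4 JM-a exon: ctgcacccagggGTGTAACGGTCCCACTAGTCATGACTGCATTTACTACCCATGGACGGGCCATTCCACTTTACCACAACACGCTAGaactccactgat
Erbb4 JM-b exon: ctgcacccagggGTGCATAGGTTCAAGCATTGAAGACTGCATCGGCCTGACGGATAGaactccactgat
Erbb4 CYT-1 exon: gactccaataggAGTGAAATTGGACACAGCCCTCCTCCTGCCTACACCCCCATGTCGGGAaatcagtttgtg
Nrg1 alpha EGF exon: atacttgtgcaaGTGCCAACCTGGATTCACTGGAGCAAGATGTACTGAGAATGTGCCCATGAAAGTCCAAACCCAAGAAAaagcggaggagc
Nrg1 beta EGF exon: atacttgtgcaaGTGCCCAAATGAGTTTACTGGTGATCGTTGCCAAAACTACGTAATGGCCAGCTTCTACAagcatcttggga
The JM-a exon of 75 bases is exon 16 of 27 in Erbb4-202 (chr1:68290243-68290317). The JM-b exon of 45 bases is exon 16 of 19 in Erbb4-205 (chr1:68290439-68290483). Both lie between the same flanking exons, as the matching lower-case letters show. The CYT-1 exon of 48 bases is exon 26 of 28 in Erbb4-201 (chr1:68043908-68043955). The alpha exon of Nrg1, 68 bases long, is exon 7 of 12 in Nrg1-206 (chr8:31838261-31838328), and the beta exon of 59 bases is exon 7 of 13 in Nrg1-203 (chr8:31837670-31837728). The EGF exons share the lower-case bases before them and differ in those after, since the next exon differs between the transcripts shown.

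All 4 receptors were expressed, by a rule of 1 TPM or more in both animals, and of the 4 ligand genes Hbegf was. In all, 5 of the 8 genes passed, where the rule held for 48.7% of protein-coding genes and 20.9% of all mouse genes. Erbb4 and Hbegf lay highest, Erbb2, Erbb3 and Egfr below them, and the 3 neuregulin genes around or under 1 TPM. The gene tables held 42223411 expected counts in replicate 1 and 40553237 in replicate 2. At about 1 TPM, protein-coding genes had 75 counts in replicate 1 and 76.8 in replicate 2 as their median. The cardiomyocyte markers bore out the tissue label, with all 8 expressed and Myl2 and Myh6 highest at 9141 ± 522 and 8288 ± 745 TPM. In whole-heart RNA, fewer cells of a type and less RNA per cell cannot be told apart.

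Erbb4, the neuregulin receptor of cardiomyocytes (ENSMUSG00000062209.15, chromosome 1, 68032186 to 69108059, minus strand), had 6.74 TPM in replicate 1 and 4.20 in replicate 2. Its mean of 5.47 ± 1.80 TPM was the highest of the 4 receptors, and 69.6% of protein-coding genes had a lower mean. The deposited credibility bounds ran from 5.99 to 7.90 TPM in replicate 1 and from 3.76 to 5.18 TPM in replicate 2, and did not overlap. These values rested on 1495 and 1016 expected counts, with exact 95% Poisson intervals of 1420 to 1573 and of 954 to 1080, which cover counting error only. Of the TPM of all 4 receptors, Erbb4 held 43.7% in replicate 1 and 37.2% in replicate 2. In the transcript table that was made from FASTQ files rather than from alignments, Erbb4 stood lower, at 5.20 TPM in replicate 1 and 3.33 TPM in replicate 2, or 36.9% and 32.0% of the receptor TPM.

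Erbb2, the partner receptor with no known ligand of its own (ENSMUSG00000062312.5, chromosome 11, 98412470 to 98437716, plus strand), had 3.33 TPM in replicate 1 and 2.66 in replicate 2, from 422 and 416 counts. Erbb3, a neuregulin receptor with a weak kinase (ENSMUSG00000018166.8, chromosome 10, 128567523 to 128589652, minus strand), had 3.00 TPM in replicate 1 and 2.90 in replicate 2, from 597 and 581 counts. The means, 3.00 ± 0.474 and 2.95 ± 0.0707 TPM, differed by less than the spread of Erbb2. Erbb3 is best known as the neuregulin receptor of Schwann cells, the glia of nerves. Of 8 Schwann cell and neural markers, Mbp alone was expressed, at 1.84 ± 0.191 TPM. The 8 markers summed to 5.66 TPM in replicate 1 and 4.11 TPM in replicate 2, the glial regulator Sox10 had 0.39 and 0.20 TPM, and Th, a marker of sympathetic nerves, no count. The part of such cells in the level of Erbb3 was not tested.

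Egfr, the receptor of EGF and HB-EGF (ENSMUSG00000020122.16, chromosome 11, 16752203 to 16918158, plus strand), was the lowest receptor, with 2.36 TPM in replicate 1 and 1.53 TPM in replicate 2. The mean was 1.95 ± 0.587 TPM, and the 336 and 204 counts were the fewest of the receptors. Its credibility bounds, 1.83 to 3.62 TPM in replicate 1 and 1.22 to 2.52 TPM in replicate 2, overlapped. The 4 receptors together came to 15.4 TPM in replicate 1 and 11.3 TPM in replicate 2.

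Among the ligand genes, Hbegf (ENSMUSG00000024486.6, chromosome 18, 36504927 to 36515805, minus strand) was alone in passing 1 TPM in both animals, with 6.89 TPM in replicate 1 and 4.87 TPM in replicate 2. It encodes HB-EGF, a membrane-bound growth factor that binds EGFR and ERBB4 once it is shed. The mean of 5.88 ± 1.43 TPM lay above 70.7% of protein-coding genes. Its credibility bounds were 5.90 to 8.17 TPM in replicate 1 and 4.39 to 5.61 TPM in replicate 2, and the counts 482 and 378. Hbegf held 61.5% in replicate 1 and 52.9% in replicate 2 of the TPM of the 11 ligand genes of the family.

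Nrg4, a ligand of ERBB4 that is known as a product of brown fat (ENSMUSG00000032311.17, chromosome 9, 55220222 to 55326844, minus strand), had 0.77 TPM in replicate 1 and 1.09 in replicate 2, from 35 and 44 counts. Nrg1, the founding member of the ligand family (ENSMUSG00000062991.7, chromosome 8, 31814551 to 32884029, minus strand), had 0.73 TPM in replicate 1 and 0.65 in replicate 2, from 51 and 63 counts. Nrg2, a ligand of ERBB3 and ERBB4 (ENSMUSG00000060275.13, chromosome 18, 36017652 to 36197380, minus strand), had 0.35 TPM in replicate 1 and 0.53 in replicate 2, from 16 and 25 counts. All 3 were detected in both hearts, and together they made 1.85 TPM in replicate 1 and 2.27 TPM in replicate 2, far below the receptors. For these low genes the deposited estimates differ among themselves. The posterior mean was 1.40 TPM in replicate 1 and 1.72 TPM in replicate 2 for Nrg4, and for Nrg1 it was 1.20 and 1.23 TPM. The plain TPM of both genes lay under the lower credibility bound in both animals, for Nrg1 bounds of 0.796 to 1.67 TPM in replicate 1 and 0.825 to 1.70 TPM in replicate 2. Whether Nrg4 and Nrg1 lay above or below 1 TPM therefore depended on the estimate. Nrg4 had 1.36 TPM in replicate 1 and 1.70 in replicate 2 in the FASTQ-derived table, whereas Nrg1 stayed under 1 TPM there, at 0.689 and 0.686 TPM. Of 6 adipocyte markers, 2 were expressed, Cfd at 6.25 ± 1.86 and Plin1 at 1.41 ± 0.318 TPM. The 6 summed to 11.99 TPM in replicate 1 and 9.55 in replicate 2, and 3 of the 4 that could be compared had centred ratios of replicate 1 over replicate 2 above 0, with a median of 0.16. Ucp1, which defines brown fat, was the exception at -1.06, with 0.74 TPM in replicate 1 and 1.44 in replicate 2. The part of fat cells in the level of Nrg4 was not tested.

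**Figure D1:**
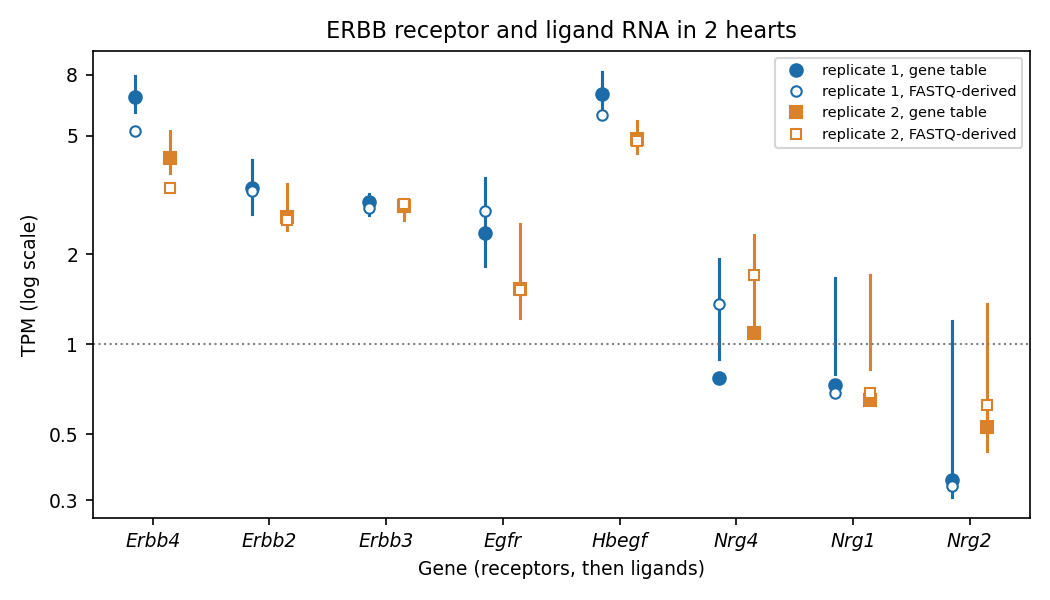
Level of each of the 8 genes in TPM on a logarithmic axis, by animal. Filled points are the gene table with its credibility bounds, open points the FASTQ-derived table, and the dotted line marks 1 TPM. Hbegf and Erbb4 lie highest, at 4.20 to 6.89 TPM in the gene table, and Nrg2 lowest, at 0.35 and 0.53 TPM.

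**Figure D2:**
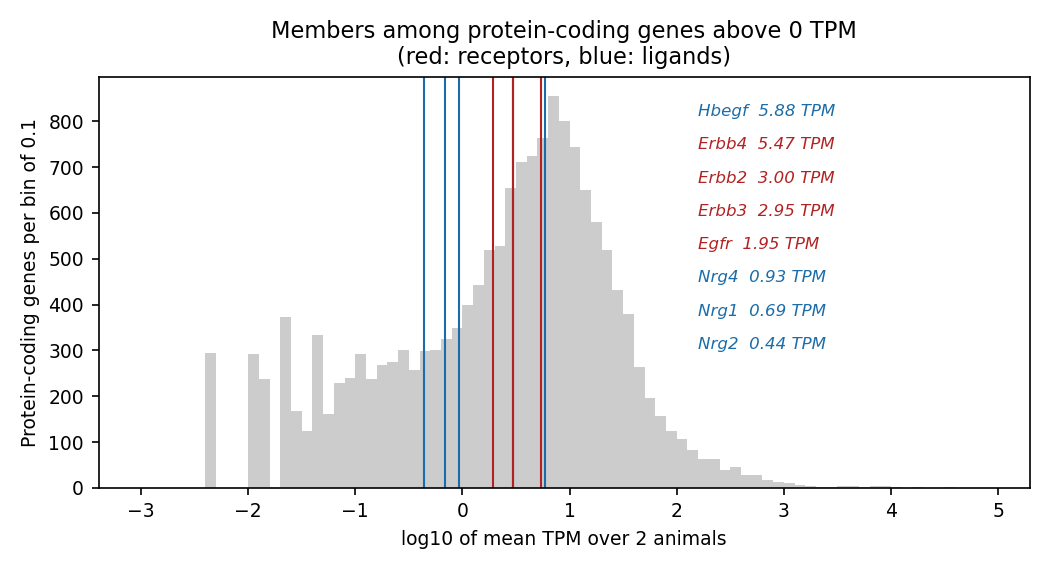
Number of protein-coding genes by the mean TPM of both animals, on a logarithmic axis. The lines mark the receptors and the ligands, from Nrg2 at 0.44 TPM to Hbegf at 5.88 TPM. All 8 genes lie below the median of expressed protein-coding genes, 7.97 TPM.

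By mean TPM the order was Hbegf, Erbb4, Erbb2, Erbb3, Egfr, Nrg4, Nrg1 and Nrg2, and the means of the FASTQ-derived table gave the same order. Against the 16322 protein-coding genes with any TPM, whose median was 3.48 TPM, Hbegf and Erbb4 lay above the middle and the other 6 genes below it. Ratios within each library, as log2 of TPM + 0.01, show how firm this order is. Of the 28 pairs of genes, 27 were ordered alike in both animals, the exception being Erbb2 over Erbb3, at 0.15 in replicate 1 and -0.12 in replicate 2. A difference was called when it was at least 2-fold on average, had the same sign in both animals and exceeded 3 SD, which 15 of the 28 pairs did. In the gene table no neighbours in the order met this rule, and Hbegf and Erbb4, Erbb2 and Erbb3, and Nrg4 and Nrg1 differed by less than 1 SD, at 0.12 ± 0.13, 0.01 ± 0.19 and 0.41 ± 0.47. By the FASTQ-derived values Nrg4 over Nrg1 was called, at 1.14 ± 0.23, and Hbegf over Erbb4 was 0.35 ± 0.25, more than 1 SD.

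The called pairs set the top of the order apart from its lower end. Erbb4 exceeded Egfr 2.79-fold, a log2 ratio of 1.48 ± 0.04, and Nrg1 7.63-fold, at 2.93 ± 0.36. Erbb3 and Erbb2 exceeded Nrg1 4.24-fold and 4.27-fold, at 2.08 ± 0.08 and 2.10 ± 0.11. Hbegf exceeded Nrg2 13.2-fold, at 3.72 ± 0.77, the widest gap of all. Erbb4 over Erbb2, the pair that carries the neuregulin signal of cardiomyocytes, was 0.84 ± 0.25, higher in 2 of 2 animals but short of the 2-fold rule. Of the 28 pairs, 12 were called in the FASTQ-derived table, 11 of them also called in the gene table.

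Much of the TPM of these genes belonged to transcripts that are not annotated with a complete coding sequence. When complete coding transcripts alone were summed, a choice made after the data were seen, Erbb3 with its single transcript kept 3.00 TPM in replicate 1 and 2.90 TPM in replicate 2, and Hbegf 6.08 and 4.70 TPM. Erbb4 was left with 3.22 TPM in replicate 1 and 2.21 TPM in replicate 2, and Erbb2 with 1.89 and 1.31 TPM. The Erbb4 sum leaves out Erbb4-205, which is annotated as protein-coding but marked as incomplete at its end. Coding transcripts of Erbb4, complete or not, held 90.5% of its TPM in replicate 1 and 95% in replicate 2. By complete coding transcripts Erbb4 and Erbb3 differed by less than 1 SD, at a log2 ratio of -0.14 ± 0.35. Erbb2 was below Erbb3 in both animals, at -0.90 ± 0.34. Nrg1 kept 0.11 TPM in replicate 1 and 0.49 TPM in replicate 2, Nrg2 0.12 and 0.19 TPM, and Nrg4 0.19 TPM in both. Called pairs again numbered 15, of which 9 were called in the gene table too. The 5 called pairs with Nrg1 as the lower gene, those of Hbegf and the 4 receptors, lost the call, with larger ratios and larger SDs than by gene TPM. Erbb4 over Nrg1 was 3.45 ± 1.84 and Erbb2 over Nrg1 2.69 ± 1.83. Among the pairs gained were 3 of neighbours, Hbegf over Erbb4 at 1.00 ± 0.12, Erbb3 over Egfr at 1.39 ± 0.42 and Egfr over Nrg4 at 2.49 ± 0.46. The order of the receptors by gene TPM thus did not carry over to transcripts annotated as complete, which for Erbb4 include none with the JM-b exon.

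Erbb4 has 5 annotated transcripts, of which 2 held most of its TPM. Erbb4-202, a complete form with the JM-a exon and without CYT-1, had 2.71 TPM in replicate 1 and 1.76 in replicate 2. Erbb4-205, the form with the JM-b exon, had 2.88 TPM in replicate 1 and 1.78 in replicate 2. The leading form was thus Erbb4-205 in both animals, with 42.7% in replicate 1 and 42.4% in replicate 2 of the gene's TPM, but its 203 and 126 counts were far fewer than the 1089 and 712 of Erbb4-202. In the FASTQ-derived table the lead went to Erbb4-202, with 48.3% in replicate 1 and 51.0% in replicate 2, and Erbb4-205 held 40.0% and 34.5%.

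Transcripts with the JM-b exon summed to 3.52 TPM in replicate 1 and 1.99 TPM in replicate 2, against 3.22 and 2.21 TPM for those with the JM-a exon printed above. JM-b therefore made up 52.2% in replicate 1 and 47.4% in replicate 2 by the alignment-derived table (49.8% ± 3.43), and 40.0% and 34.5% by the other (37.3% ± 3.91). The JM-b sum includes Erbb4-204, a fragment of 240 bases with 0.64 TPM in replicate 1 and 0.21 in replicate 2, from 3 counts and 1 count, listed at 0 in the FASTQ-derived table. Without it, a choice made after the data were seen, JM-b made up 47.2% in replicate 1 and 44.6% in replicate 2 (45.9% ± 1.84). Transcripts with either exon were assigned counts in both hearts, but reads over the exons themselves were not counted here. The annotation bears on this split. Erbb4-205 is marked as incomplete at its end and spans 2196 bases, while 9508 of the 12037 bases of Erbb4-202 lie downstream of that end. In this annotation the JM-a transcripts hold 9941 stretches of 31 bases that no JM-b transcript has. The JM-b transcripts hold 186 that no JM-a transcript has, 117 of them only in the fragment Erbb4-204 and 27 only in Erbb4-205. Reads from the downstream part of a JM-b mRNA could thus be assigned to JM-a transcripts only, and the share of JM-b rests on few positions.

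The CYT-1 exon could be read from the complete forms alone. Erbb4-201, which includes it, had 0.51 TPM in replicate 1 and 0.45 in replicate 2, against 2.71 and 1.76 TPM for Erbb4-202, which skips it. Inclusion was 15.8% in replicate 1 and 20.4% in replicate 2, and 19.4% and 22.2% in the FASTQ-derived table. In all 4 of these values the form that skips the exon was the larger. Of the 11752 stretches of 31 bases in Erbb4-201, 77 occur in no other Erbb4 transcript, and of the 12007 in Erbb4-202, 332. This split too rests on a short part of the mRNA. Erbb4-202 shares all of its 27 coding exons with Erbb4-201 but 26 of its 27 exons, so the 2 also differ outside the coding sequence. Reads from that part could be assigned to Erbb4-202 whatever the state of CYT-1. Their part in the inclusion values was not tested.

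Erbb2 was split between Erbb2-201, its only coding transcript, and Erbb2-202, which is annotated as processed transcript with no coding sequence. Erbb2-201 had 1.89 TPM in replicate 1 and 1.31 in replicate 2, or 56.8% and 49.2% of the gene. Erbb2-202 had 0.70 TPM in replicate 1 and 1.35 in replicate 2, and shares 23 of its 26 exons with the 27 of Erbb2-201. By these estimates the noncoding form was lower in replicate 1 while the coding form was higher there, and the sum of counts, 422 and 416, hardly differed. Of the 4401 stretches of 31 bases in Erbb2-202, 109 occur in no other Erbb2 transcript, and of the 4982 in Erbb2-201, 690. The split between the 2 forms thus rests on a small part of their sequence. The FASTQ-derived table gave 0.738 TPM in replicate 1 and 1.59 TPM in replicate 2 for Erbb2-202. A short fragment, Erbb2-203, had 0.74 TPM from 7.19 counts in replicate 1 and was listed at 0 in replicate 2.

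Egfr RNA was spread over 5 transcripts. Egfr-201, the full-length receptor with a coding length of 3630 bases, had 0.77 TPM in replicate 1 and 0.43 in replicate 2. Egfr-202, with 1965 coding bases, shares 15 of its 16 coding exons with Egfr-201 and lacks the later ones, which include those of the kinase part. It had 0.63 TPM in replicate 1 and 0.46 in replicate 2, close to the full-length form by TPM although its counts were lower, 60.6 and 44.2 against 262 and 148. Short fragments made up the rest: Egfr-203 had 0.55 TPM in replicate 1 and was listed at 0 in replicate 2, and Egfr-204 had 0.19 TPM in replicate 1 and 0.48 in replicate 2, from 3.98 and 10.1 counts. Egfr-205, at 0.22 TPM in replicate 1 and 0.16 TPM in replicate 2, had 2.57 and 1.82 counts. In the FASTQ-derived table Egfr-203 led in replicate 1 at 30.9% and Egfr-204 in replicate 2 at 49.7%. A few counts on such short fragments weigh heavily in the gene's TPM.

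For Hbegf nearly all RNA was of its coding transcript Hbegf-201, with 88.2% in replicate 1 and 96.7% in replicate 2. The retained-intron form Hbegf-203 had 0.72 TPM from 8.38 counts in replicate 1 and was listed at 0 in replicate 2. Nrg2 showed 2 of its 5 transcripts. Nrg2-202, a partial coding transcript, held 65.7% of the TPM in replicate 1 and 64.2% in replicate 2 on 4.11 and 6.04 counts. The complete form Nrg2-203 took the other 34.3% and 35.8% on 11.9 and 19.0 counts.

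Of the 13 Nrg4 transcripts 2 are coding, and they held 24.4% of its TPM in replicate 1 and 17.3% in replicate 2, or 0% and 11.4% in the FASTQ-derived table. Most Nrg4 RNA was assigned to forms annotated as processed transcript, 60.3% in replicate 1 and 77.3% in replicate 2, and by the FASTQ-derived values 92.2% and 82.3%. The largest of these were Nrg4-212, at 0.21 TPM in replicate 1 and 0.45 TPM in replicate 2, and Nrg4-209, at 0.20 and 0.40 TPM. Nrg4-213, the main coding form, had 0.19 TPM in replicate 1 and 0.13 in replicate 2, but by the FASTQ-derived values it was listed at 0 in replicate 1 and had 0.0798 TPM in replicate 2. Nrg4-207, annotated for nonsense-mediated decay, held 12.8% in replicate 1 and 3.64% in replicate 2. In the FASTQ-derived table Nrg4-210 led in replicate 1 with 39.7% and was listed at 0 in replicate 2, and Nrg4-205 held 13.1% in replicate 1 and 18.4% in replicate 2. Exons of Nrg4 overlap those of Fbxo22, on the opposite strand, over 368 bases or 6.06% of the exon bases of Nrg4. Fbxo22 had 11.4 TPM in replicate 1 and 9.98 in replicate 2, more than Nrg4. The library kit keeps strand, but no source used here says whether the counting did.

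Nrg1 has 18 annotated transcripts, 12 of them coding, and 7 had any TPM in the alignment-derived table. Coding transcripts held 15.1% of its TPM in replicate 1 and 75.4% in replicate 2, and retained-intron forms 84.9% and 24.6%. The FASTQ-derived table gave coding shares of 50.1% in replicate 1 and 76.4% in replicate 2, so the value of replicate 1 depended on the table. Nrg1-203, a beta form that starts at the exon of type I, a form known for its immunoglobulin-like domain, was the one with the most counts in both animals, 20.1 in replicate 1 and 26.5 in replicate 2, for 0.11 and 0.15 TPM. Transcripts with the beta exon printed above had 20.1 counts in replicate 1 and 38.7 in replicate 2, and those with the alpha exon 10.7 and 16.4. In the FASTQ-derived table the beta transcripts had 22.5 counts in replicate 1 and 59.1 in replicate 2, and the alpha transcripts 14.0 and 0.720. Transcripts with neither exon had 20.2 counts in replicate 1 and 7.91 in replicate 2 in the alignment-derived table. Counts favour long transcripts and mostly come from outside these short exons. In replicate 1 of that table all beta counts were of Nrg1-203, of 5415 bases, and all alpha counts of Nrg1-205, of 1415 bases. By counts, with this limit, beta exceeded alpha in both animals and both tables. By TPM beta did not exceed alpha in replicate 1, with 0.11 TPM for beta and 0.24 TPM for alpha. All of that alpha TPM was the retained-intron form Nrg1-205, which led the gene in replicate 1 at 32.9%. The FASTQ-derived table gave beta 0.110 TPM and alpha 0.239 TPM in replicate 1 as well, but there 0.220 TPM of the alpha sum was Nrg1-212, a complete coding form.

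The start of the Nrg1 mRNA was read in the same way. Transcripts with the type I start had 30.3 counts in replicate 1 and 47.2 in replicate 2. Those with the type III start, which in coding transcripts gives a membrane-bound cysteine-rich form known from nerve, had 4.17 and 15.8. All type III counts of replicate 1, and 3.66 of those in replicate 2, were of the retained-intron form Nrg1-204. Of the type I counts, 10.2 in replicate 1 and 4.25 in replicate 2 were of the retained-intron form Nrg1-215. Type I was the larger in the FASTQ-derived table as well, with 44.6 counts in replicate 1 and 45.5 in replicate 2, against 5.53 and 22.5 for type III. Nrg1-206, an alpha form, was listed at 0 in replicate 1 and had 0.19 TPM in replicate 2, and Nrg1-201, a type III beta form, was listed at 0 in replicate 1 and had 0.15 TPM in replicate 2. In the FASTQ-derived table Nrg1-206 was listed at 0 in both, and Nrg1-212 led in replicate 1 at 31.9% and was listed at 0 in replicate 2. In replicate 2 the lead went to Nrg1-201 at 29.9%, and Nrg1-210 took 20.7% there and was listed at 0 in replicate 1. The retained-intron forms Nrg1-215, Nrg1-204 and Nrg1-207 held 27.4%, 12.3% and 12.3% in replicate 1, and 12.3%, 12.3% and none in replicate 2.

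Among the 7 genes with several transcripts, the leading transcript by TPM was the same in both animals for 4, namely Erbb4, Hbegf, Nrg2 and Nrg4. The FASTQ-derived table gave 3, with Nrg4 no longer among them. By expected counts, which favour long transcripts, all 7 had the same leading transcript in both animals.

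**Figure D3:**
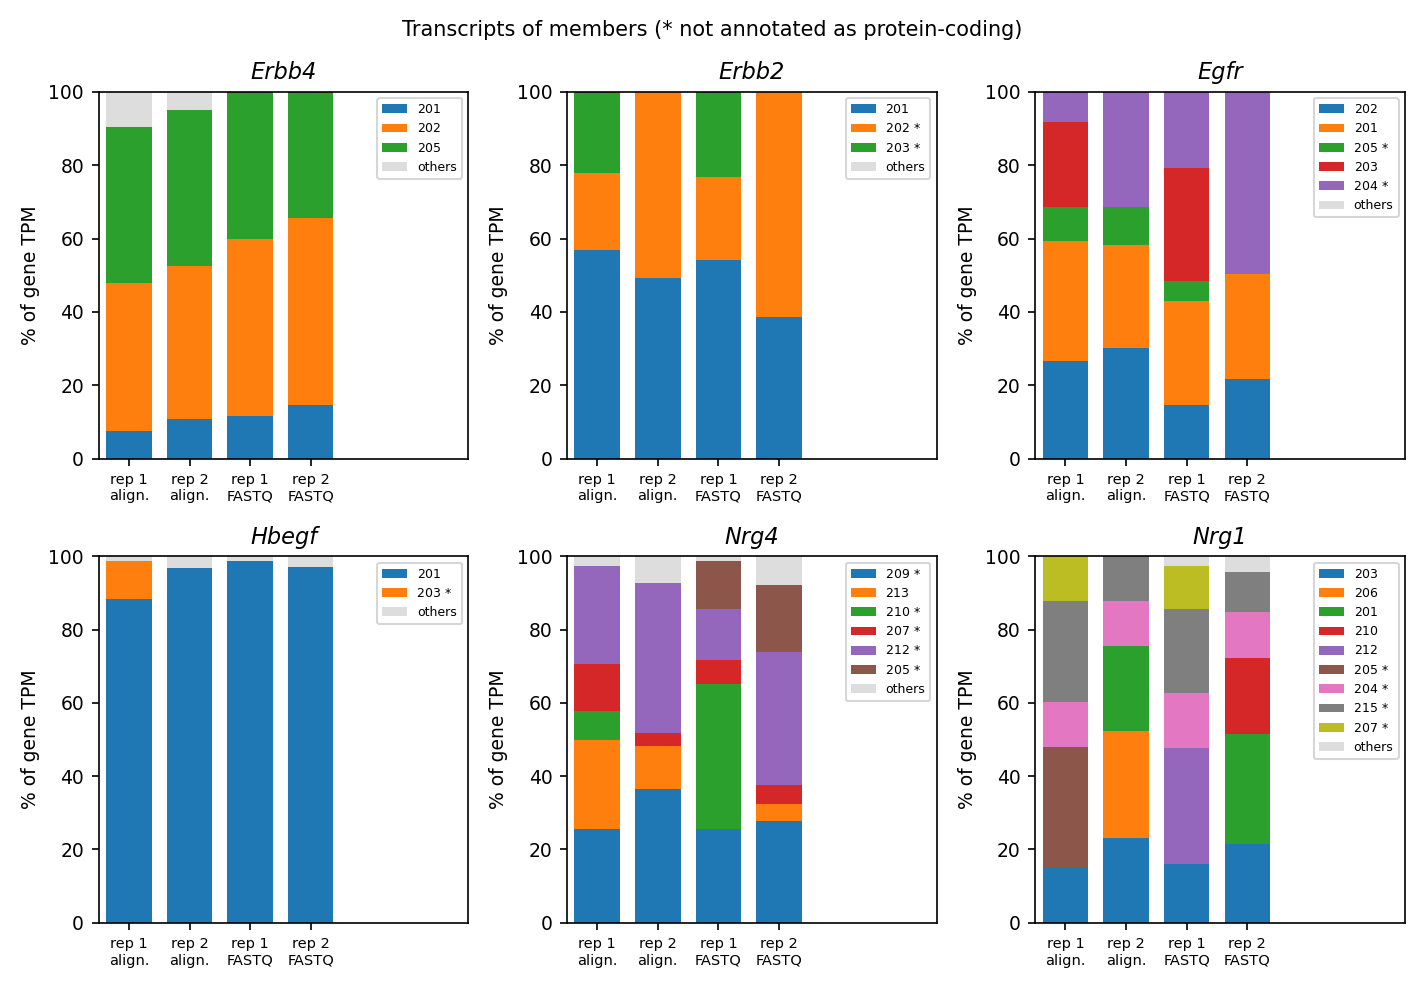
Share of each gene's TPM by transcript, in percent, for 6 genes, with a bar for each animal in each of the 2 transcript tables. Transcripts with at least 10% in any bar are named, and an asterisk marks those not annotated as protein-coding. Hbegf was nearly all Hbegf-201, the Erbb4 bars kept one pattern across the animals, and those of Nrg1 and Egfr did not.

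None of the genes differed 2-fold between the animals. Differences are log2 ratios of TPM + 0.1, replicate 1 over replicate 2, centred on the median of 11876 compared genes, which before centring lay 0.18 towards replicate 1. Of these genes 1.41% were 2-fold or more apart, and 0 of the 5 genes of the family that reached the filter of 1 TPM on average. With 5 genes a count of 0 is near that share, so it says nothing particular of the family. Erbb4 was higher in replicate 1 at 0.49, Egfr at 0.41 and Hbegf at 0.31. These ratios were above those of 96.0%, 94.4% and 90.5% of compared genes. In either direction, 91.0%, 87.1% and 78.9% of compared genes lay closer to 0. Erbb2 was at 0.13 and Erbb3 at -0.14, between the quartiles of all compared genes. Of the 5, 4 lay above 0, as 50.0% of compared genes did. The median of the 5 was 0.31 and their range -0.14 to 0.49, against a median of 0 and a central 95% of -0.64 to 0.59 for all compared genes.

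The deposited credibility bounds of the animals lay apart for 2 of the 5, Erbb4 and Hbegf, both higher in replicate 1. That was so for 28.0% of all compared genes in either direction and for 26.6% with replicate 1 higher. Counts per library total, with exact 95% intervals for counting error, gave Erbb4 a log2 ratio of 0.50 (0.38 to 0.62), Egfr 0.66 (0.41 to 0.92) and Hbegf 0.29 (0.10 to 0.49). Those of Erbb2 at -0.04 (-0.24 to 0.16) and Erbb3 at -0.02 (-0.19 to 0.15) included 0. The same held for Nrg1 at -0.36 (-0.92 to 0.19), Nrg4 at -0.39 (-1.07 to 0.29) and Nrg2 at -0.70 (-1.71 to 0.26). Their few counts could not show differences of that size at this depth. Ratios per library total were not centred, so 0 there means equal counts per total and not the median of compared genes. Centred on that median, expected counts gave Egfr 0.54, Erbb4 0.38, Hbegf 0.17, Erbb3 -0.14 and Erbb2 -0.16, without intervals.

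Direction depended on scaling for some of the genes. Erbb4, Egfr and Hbegf were higher in replicate 1, and Nrg4 and Nrg2 lower, under all 6 ways of computing the ratio. Erbb2 changed sign with counts in place of TPM, at -0.16, while Erbb3 and Nrg1 did so without centring, at 0.05 and 0.15. Centred on TPM, Nrg4 was at -0.63, Nrg2 at -0.67 and Nrg1 at -0.04, all 3 below the filter of 1 TPM.

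Markers of other cells and of the state of the tissue also differed between these libraries. Endothelial markers, led by Egfl7 and Pecam1, were all expressed and summed to 266.6 TPM in replicate 1 and 203.6 TPM in replicate 2, with 7 of 8 centred ratios above 0 and a median of 0.15. Red blood cell genes, led by Hbb-bs and Hba-a1, summed to 3478 TPM in replicate 1 and 2255 TPM in replicate 2, with 5 of 5 above 0 and a median of 0.43. Immediate early genes ran the other way, with 1 of 8 above 0, a median of -1.04 and a sum of 40.6 TPM in replicate 1 and 58.6 TPM in replicate 2. Jun and Junb led them by mean level, and Fos was at 0.88 TPM in replicate 1 and 8.11 TPM in replicate 2. Epicardial markers, led by Upk3b and Msln in mean level, were mixed, with 2 of 6 above 0 and a median of -0.30. Their sum was 14.87 TPM in replicate 1 and 17.75 TPM in replicate 2. Sums in replicate 1 and replicate 2 were 39054 and 34365 TPM for cardiomyocyte markers, 418 and 361 TPM for fibroblast markers, led by Gsn and Dcn, 54.8 and 44.6 TPM for macrophage markers, led by Lyz2 and Csf1r, and 155 and 133 TPM for smooth muscle and pericyte markers, led by Rgs5 and Acta2. Median centred ratios of these 4 lists lay between -0.04 and 0.06. The part of these differences in the ratios of Erbb4, Egfr and Hbegf was not tested.

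**Figure D4:**
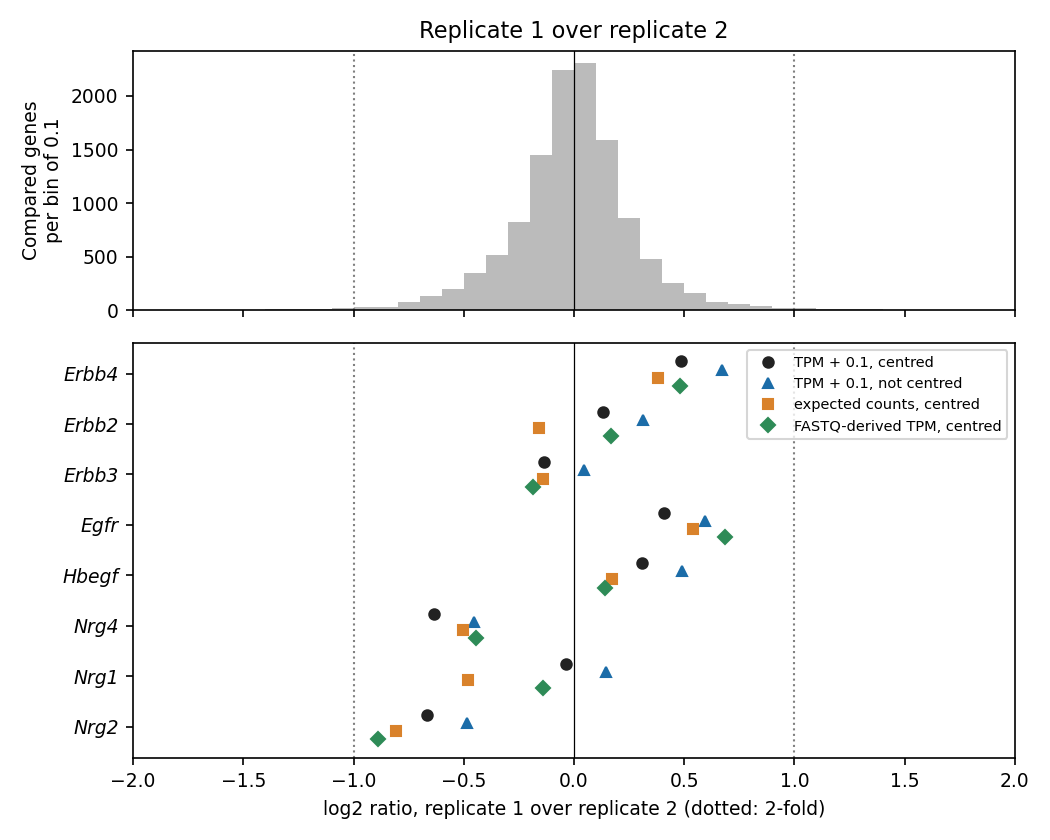
Difference between the animals as a log2 ratio, replicate 1 over replicate 2, centred except for the points marked as not centred. The histogram shows the compared genes from -2 to 2, with a few beyond these ends not drawn. The points below it are the 8 genes under 4 scalings, and the dotted lines mark 2-fold. No point of the 8 genes crosses a dotted line, and Erbb4, Egfr and Hbegf stay right of 0 throughout.

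Levels of the 8 genes were also compared between the 2 ways of quantifying the reads. No gene of the 8 differed 2-fold or more between the gene table and the FASTQ-derived table in both animals, as 4.27% of compared genes did. For so few genes a count of 0 is near that share, so it says nothing particular of them. Smaller differences were seen, with Nrg4 higher and Erbb4 lower in the FASTQ-derived table in both animals. Few sequences are shared with other genes: 96 of the 11270 stretches of 31 bases in Egfr transcripts, 2 of the 10480 in Nrg1 and none in the other 6 genes. Exons of Nrg1 overlap those of the noncoding Gm26578, on the opposite strand, over 482 bases or 4.66% of the exon bases of Nrg1, and exons of Erbb2 those of Mien1 over 9 bases. Gm26578 had 1 count in replicate 1 and 0 in replicate 2.

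Of 11 genes for ligands of the family, Hbegf alone was expressed in both animals, and the median was 0.59 TPM. Tgfa, an EGFR ligand, had 1.00 TPM in replicate 1 and 0.47 in replicate 2, and Egf had 0.73 TPM in both. Btc, which encodes betacellulin, a ligand of EGFR and ERBB4, had 0.55 TPM in replicate 1 and 0.63 in replicate 2, and Epgn, the gene of epigen, 0.13 and 0.20 TPM. Nrg3, a further neuregulin, had 2 counts in replicate 1 and 0 in replicate 2, Areg 1 and 0, and Ereg 2 and 6. Of the 79 listed genes of the pathway beyond the 8, these 7 ligands included, 68 were expressed, where 48.7% of protein-coding genes were. None of the 68 was 2-fold apart between the animals, as 1.41% of compared genes were. A count of 0 of 68 is near that share, so it says nothing particular of these genes.

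Proteases that shed ligands and receptors, listed with Rhbdf1 and Rhbdf2, which help ADAM17 mature, passed in 8 of 9, with a median of 9.61 TPM. Adam15 was highest at 15.9 ± 1.27 TPM, followed by Adam17, the enzyme that cuts the JM-a form of ERBB4, at 14.4 ± 2.60 TPM, and Adam12 was lowest at 0.0850 ± 0.0495 TPM. All 6 subunits of gamma-secretase, which frees the intracellular domain of a cut ERBB4, were expressed, from Aph1b at 2.21 ± 0.290 TPM to Psenen at 32.0 ± 1.97 TPM and Aph1a at 39.7 ± 3.32 TPM.

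By their medians, the lists of signalling genes downstream lay above the receptors, whose median was 2.97 TPM. Adaptors passed in 11 of 12 with a median of 13.4 TPM, led by the phosphatase Ptpn11 at 54.4 ± 7.76 TPM and Grb2 at 37.1 ± 1.19 TPM, with Shc4 lowest at 0.235 ± 0.0919 TPM. All 12 genes of the phosphoinositide 3-kinase and AKT branch passed, with a median of 16.8 TPM, from the catalytic subunit Pik3cb at 4.08 ± 0.566 TPM to Akt1 at 67.3 ± 1.66 TPM and Akt2 at 73.0 ± 15.0 TPM. All 10 genes of the RAS and ERK branch did too, with a median of 25.6 TPM, from Braf at 5.24 ± 0.516 TPM to Map2k2 at 42.5 ± 5.30 TPM.

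Negative regulators passed in 15 of 16 with a median of 5.90 TPM. Nedd4, a ubiquitin ligase, was highest at 128 ± 9.54 TPM, the related Wwp1 next at 14.4 ± 1.27 TPM and Lrig3 lowest at 0.620 ± 0.0424 TPM. Chaperones and anchors of ERBB2 passed in 6 of 7, with a median of 47.6 TPM. Hsp90ab1 and Hsp90aa1, the chaperones that keep ERBB2 stable, stood at 512 ± 114 and 66.0 ± 25.2 TPM, and Muc4 was lowest at 0.110 ± 0.0141 TPM. These genes serve many receptors and proteins, so their levels do not speak of ERBB signalling in particular.

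**Figure D5:**
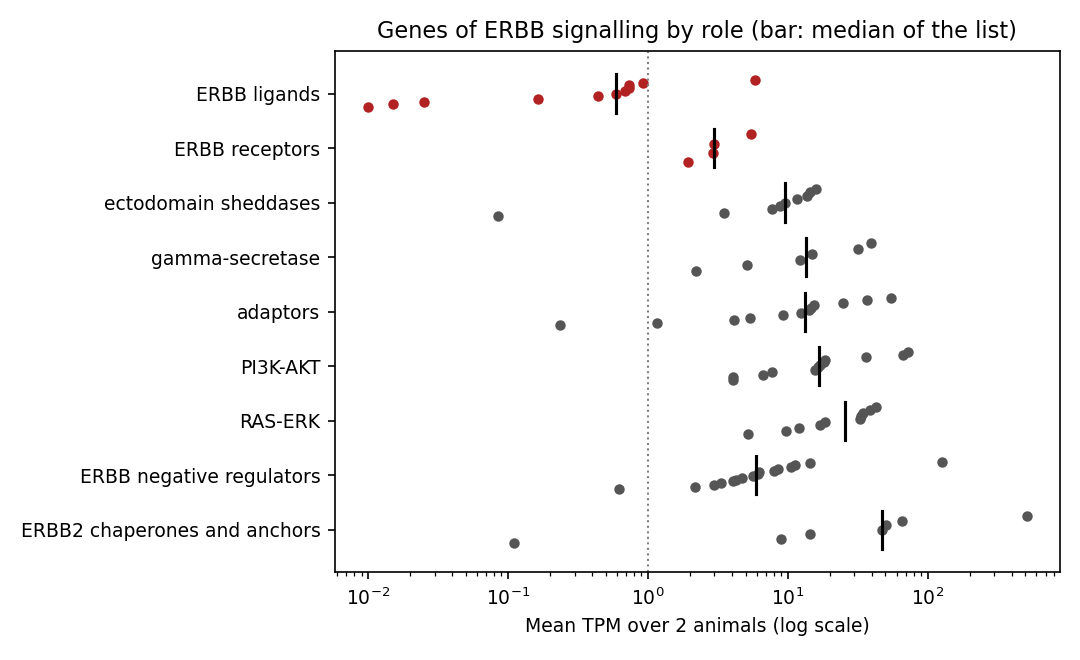
Mean TPM of each gene of the pathway lists on a logarithmic axis, with a bar at the median of each list and values under 0.01 TPM drawn at that level. The ligands have the lowest median, 0.59 TPM, the receptors follow at 2.97 TPM, and the chaperones have the highest, 47.6 TPM.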

How the data were processed

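Both libraries were made from 300 ng of RNA with a directional kit, per the labels' protocols. The authors made expected counts, estimated counts per gene or transcript that need not be whole, from transcriptome alignments or, in the FASTQ-derived tables, from the reads, per the file headers and the deposited description files. These name mm10 and GENCODE M21. The authors' TPM are relative to all features of a library, per the file headers, and come with a posterior mean and credibility bounds of unstated level. The aligner and quantifier are not named in the sources used here. The FASTQ-derived tables summed to 43782858 estimated counts in replicate 1 and 41468698 in replicate 2. Labels give the animals separate numbers and 1 donor identifier, read here as naming the strain. If the identifier named 1 animal instead, the SDs would be technical, which the labels do not settle.

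Values were taken as deposited and analysed in Python 3.11.15 with pandas 2.3.3, numpy 2.4.6 and scipy 1.17.1, and drawn with matplotlib 3.10.9. The authors' deposited TPM were put on a log2 scale, log2(TPM + 0.1) between animals and log2(TPM + 0.01) between genes, which understates differences of low genes. Genes were compared between animals when their mean reached 1 TPM and their counts over both libraries 20. For a gene at 0, the limit is 3 counts, or 0.0711 CPM in replicate 1 and 0.0740 CPM in replicate 2. Intervals and limits cover counting error only, since PCR copies were not told apart.

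The genes and all lists were chosen with earlier results of these data known. Names follow a rule: all 8 genes, the 2 highest and the lowest of each pathway list, those under 1 TPM or 2-fold apart between the animals, the 2 highest of each marker list, and transcripts with 10% or more of their gene. Sox10, Th, Ucp1, Fos, Fbxo22, Mien1 and Gm26578 were named after their values were seen. A few genes that the rule would name are not reported here. With 1 group, no gene could be named for a pattern like that of another. The exon sequences were cut from the GENCODE M21 transcripts.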

Additional observations from a re-analysis of the deposited data

How the results depend on the processing

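Of 184 recomputed values, 142 stayed within the spread of the animals or within 1.5 times the count, 42 moved and none reversed a called value, although uncalled ratios such as Erbb2 over Erbb3 changed sign. The number of genes at the expression threshold, 5 at 1 TPM, was 7 at 0.5 TPM, 0 at 5 TPM, 6 in the FASTQ-derived table and 7 with TPM rescaled to nuclear protein-coding genes. It was 6 without replicate 1 and 5 without replicate 2. Erbb4 and Hbegf exceed 5 TPM in replicate 1 alone. Called pairs, 15 of 28, numbered 12 in the FASTQ-derived table, 13 with TPM + 1, 15 with complete coding transcripts (9 of them shared), 17 without replicate 1 and 23 without replicate 2, where a single library has no SD to exceed. Genes with the same leading transcript in both animals, 4 by TPM, were 7 by expected counts and 3 in the FASTQ-derived table. The count of 0 genes 2-fold apart between the animals was 0 in all 6 alternatives. Rescaling raised every level, Erbb4 to 15.2 TPM and Nrg1 to 1.94 TPM. The other pathway genes at 1 TPM, 68, ranged from 54 at 5 TPM to 71 at 0.5 TPM. No paired analysis was possible because both animals belong to 1 group.

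The precision is that of 2 animals and, for Nrg1, Nrg2 and Nrg4, of 16 to 63 counts a library. Isoform shares depend on how reads common to several transcripts were split, and those of Erbb4 on an incomplete transcript. Levels in whole heart do not say which cells made an RNA.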
